A study of Mus musculus with 9 samples.

Results

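Clade B serpins were followed in labial mucosa biopsies of mice from 3 strains. The group comprised 9 genes, Serpinb3a, Serpinb3b, Serpinb3c, Serpinb3d, Serpinb2, Serpinb5, Serpinb12, Serpinb13 and Serpinb1a, out of 55342 gene symbols in the deposited tables. They were taken by symbol from a list that was drawn up with values of these same libraries in view, so their levels and differences are given as a description and carry no test. All 9 were present in every library and all 9 passed the filter on low counts.

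The strains are labelled Tac111, Tac146 and B6, with 3 libraries each (Tac111 replicates 1, 2 and 3, Tac146 replicates 2, 3 and 4, B6 replicates 1, 2 and 3). All mice were infected before the biopsy, per the labels' protocols. The labels give no infectious agent, dose or timing, no age of the mice and no mutation behind the strain names. As cell type they give T cells for Tac111 and Tac146 and ILC1, a kind of innate lymphocyte, for B6, so strain and labelled cell type cannot be told apart in comparisons with B6. The transcripts given below were not those of purified T cells or ILC1. Nothing in the labels says that libraries of a strain came from separate animals, so the spread between them may be technical.

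Serpins fold around a mobile stretch near their carboxy end, the reactive centre loop, which a protease cuts as if it were a substrate. The cut loop inserts into the body of the serpin and traps the protease in a covalent complex. Clade B serpins lack a classical signal peptide and act mostly inside cells, where they shield squamous epithelium from cathepsins and serine proteases, and a few members have lost the inhibitory mechanism.

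Levels are given as CPM, expected counts scaled to a common library size by TMM factors, which allow for differences in library composition. Total expected counts ran from 27192359 to 46456500. The labelled cell types were checked against their defining transcripts. Cd3e, a chain of the T cell receptor complex, had 0, 0 and 0 counts in Tac111, 8, 7 and 6 in Tac146 and 71, 28 and 36 in B6. Ncr1, a receptor of natural killer cells and ILC1, had 0, 0 and 0 counts in Tac111, 15, 12 and 21 in Tac146 and 7, 13 and 10 in B6. A count of 0 allows up to 3 counts, and covers counting error only. The T cell marker Trac had 4, 2 and 2 counts in Tac111, 1, 2 and 4 in Tac146 and 25, 9 and 16 in B6. Tbx21, an ILC1 and natural killer cell marker, had 22, 15 and 24 counts in Tac111, 24, 40 and 25 in Tac146 and 42, 28 and 36 in B6. Il2rg had 4, 3 and 4 counts in Tac111, 242, 131 and 166 in Tac146 and 216, 148 and 145 in B6. In CPM, Cd3e, Trac, Ncr1 and Tbx21 reached at most 1.7 and Il2rg at most 5.35. Cd3e and Trac were higher in every library of B6, labelled ILC1, than in every library labelled T cells. A list of 12 genes of differentiated oral keratinocytes was led by the keratins Krt4 and Krt13. This list took 6.67 to 7.58% of the counts in Tac111, 7.26 to 9.62% in Tac146 and 6.41 to 10.5% in B6. By these values the libraries held bulk mucosa rather than the purified T cells or ILC1 that the labels name. In such bulk samples, fewer cells of a type and less RNA per cell cannot be told apart. Tac146 replicate 4 had the lowest share of a skeletal muscle list, 1.68% of the counts, against 2.49 to 3.14% in the other 8 libraries. Fold changes of the Serpinb3 copies, Serpinb12 and Serpinb5 that involve Tac146 are also given without it.

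Of the 9 genes, 8 lie in a cluster of 12 clade B serpins on chromosome 1, from 106861173 to 107610484 (GRCm38), a span of 749312 bases. Serpinb5, Serpinb12 and Serpinb13 lie at its start on the plus strand, the 4 Serpinb3 copies follow on the minus strand, and Serpinb2 lies near its end on the plus strand. Serpinb1a is on chromosome 13, from 32842092 to 32851185, on the minus strand.

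The 4 Serpinb3 copies are similar in sequence, which limits how far some short reads can be assigned to one of them. Their coding sequences share 86.8 to 93.4% of aligned bases over 6 pairs, whereas the 30 other pairs among the 9 genes share 57.7 to 64.3%. The stretch of the coding sequence where Serpinb3c differs most from Serpinb3a is shown, because it is what separates the most variable copy from the most abundant one. It covers coding bases 1022 to 1081 of the 1161 in Serpinb3a, in the last part of the coding sequence, where serpins encode the reactive centre loop. The sequences are from GENCODE M21 transcripts of GRCm38, chromosome 1, minus strand, and capitals mark bases that differ from Serpinb3a.
Serpinb3a: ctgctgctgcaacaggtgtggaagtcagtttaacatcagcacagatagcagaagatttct
Serpinb3b: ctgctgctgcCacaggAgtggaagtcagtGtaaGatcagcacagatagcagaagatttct
Serpinb3c: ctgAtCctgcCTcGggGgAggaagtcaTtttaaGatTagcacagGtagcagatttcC
Serpinb3d: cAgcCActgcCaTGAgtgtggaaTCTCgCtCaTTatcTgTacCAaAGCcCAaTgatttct
Within this stretch Serpinb3c carried 12 substituted bases and was 3 bases shorter, Serpinb3b carried 4 substituted bases and Serpinb3d carried 25.

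Windows of 50 bases along each transcript were compared with all annotated transcripts to see where a read could not be placed. Windows shared with another gene made up 15.1% of Serpinb3a, 14.7% of Serpinb3b, 12.2% of Serpinb3c and 13.4% of Serpinb3d. Serpinb1a shared 3.4% and the other 4 genes shared none. With windows of 100 bases the shares were 6.6% for Serpinb3a, all with the predicted gene Gm8080, 0.5% for Serpinb3b and 0.5% for Serpinb3c, which shared them with each other, and 0 for the other members. The deposited counts bear the same mark. The 4 Serpinb3 copies added up to a whole number in 0 of 9 libraries on their own and in 9 of 9 once Gm8080 was added, with a tolerance of 0.03. Taken singly, Serpinb3a was whole in 0 of 9 libraries, Serpinb3b in 2 and Serpinb3c in 5, and Serpinb3d in all 9. Serpinb2 was whole on its own in 0 of 9 libraries and, together with Serpinb10, which overlaps it by 6476 bases on the same strand, in 9 of 9. The annotated gene body of Serpinb3b also covers 7161 bases of Serpinb3c on the same strand, so the split among these rows is uncertain, while the sum of the Serpinb3 copies is affected only by reads shared with other genes.

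Per kilobase of annotated exons, the genes spanned more than 3 orders of magnitude in level. Serpinb3a was highest with a mean of 1143 CPM per kilobase over the 9 libraries, followed by Serpinb12 with 400.6, Serpinb5 with 136, Serpinb1a with 71.8, Serpinb2 with 52.9, Serpinb3c with 36.3, Serpinb3b with 31.7, Serpinb13 with 8.35 and Serpinb3d with 0.924. Each gene exceeded the next in this order in 9 of 9 libraries, except that Serpinb2 exceeded Serpinb3c in 7 and Serpinb3c exceeded Serpinb3b in 3. Serpinb3a had rank 71 among all symbols by mean CPM in Tac111, rank 41 in Tac146 and rank 48 in B6. Together the 9 genes took between 0.239% and 0.532% of all counts in a library.

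**Figure D1:**
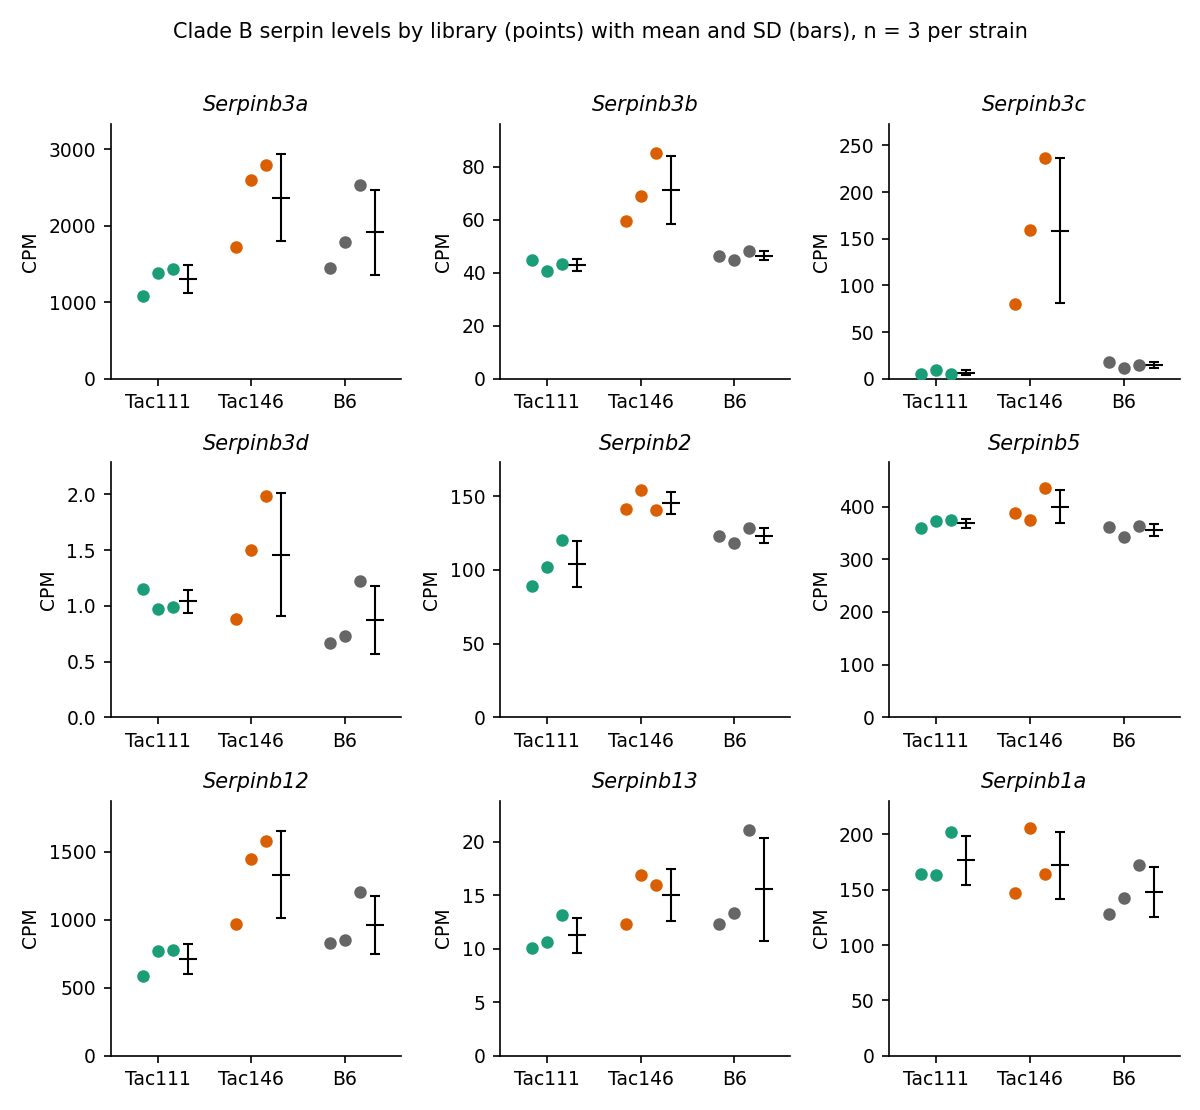
CPM of each of the 9 serpins (vertical axes start at 0) in the 3 Tac111, 3 Tac146 and 3 B6 libraries, 1 point per library, with the mean and SD of each strain as a bar (n = 3). Serpinb3c stood at 80.5 to 236 CPM in Tac146 and at or below 18.0 CPM in the other 6 libraries. All strains overlapped for Serpinb3d, Serpinb13 and Serpinb1a.

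Serpinb3c varied most between the strains. Human SERPINB3 and SERPINB4, to which the mouse Serpinb3 copies are related, are the squamous cell carcinoma antigens, which inhibit cysteine cathepsins and chymotrypsin-like serine proteases. Serpinb3c (chromosome 1, 107271201 to 107278371) stood at 5.45, 9.36 and 5.49 CPM in Tac111, 80.5, 159.9 and 236 CPM in Tac146 and 18.0, 11.7 and 15.4 CPM in B6. Every Tac146 library was above every B6 library, and every B6 library was above every Tac111 library. The means were 6.77 ± 2.24 CPM in Tac111, 159 ± 77.8 in Tac146 and 15.0 ± 3.18 in B6 (SD, n = 3 each). Tac146 exceeded B6 10.5-fold (log2 fold change 3.40, SE 0.37), or by 2.99 on the log2 scale (SE 0.29) without Tac146 replicate 4. Tac111 was 2.24-fold lower than B6 (log2 fold change -1.16, SE 0.37) and 23.6-fold lower than Tac146 (log2 fold change -4.56, SE 0.39), or -4.16 (SE 0.31) without Tac146 replicate 4. By mean CPM, Serpinb3c had rank 10588 among all symbols in Tac111, rank 866 in Tac146 and rank 8113 in B6.

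Because copies can share reads, the share of Serpinb3c among the 4 copies was also computed. It was 0.478, 0.651 and 0.371% in Tac111, 4.32, 5.66 and 7.58% in Tac146 and 1.19, 0.635 and 0.593% in B6. The 95% Wilson interval was 4.18 to 4.46% for the lowest Tac146 library and 1.11 to 1.28% for the highest B6 library, which covers counting error only. The share was higher in every Tac146 library than in every library of the other strains. Where these reads fall along the transcript was not analysed here.

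Serpinb3a (chromosome 1, 107045587 to 107052303) carried most of the counts of the 4 copies, from 89.6 to 97.5%. Its level was 1089, 1386 and 1433 CPM in Tac111, 1722, 2595 and 2792 CPM in Tac146 and 1445, 1783 and 2529 CPM in B6. Tac111 lay below both other strains without overlap, whereas Tac146 and B6 overlapped. The log2 fold change was -0.56 (SE 0.23) in Tac111 against B6, 0.30 (SE 0.23) in Tac146 against B6 and -0.86 (SE 0.23) in Tac111 against Tac146. Without Tac146 replicate 4, Tac146 against B6 gave 0.17 and Tac111 against Tac146 gave -0.73 (SE 0.24 each).

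Serpinb3b (chromosome 1, 107153940 to 107278361) stood at 44.9, 40.5 and 43.4 CPM in Tac111, 59.6, 68.9 and 85.3 CPM in Tac146 and 46.3, 44.9 and 48.3 CPM in B6. Tac146 was above both other strains in every library, while Tac111 and B6 overlapped. The log2 fold change was -0.11 (SE 0.12) in Tac111 against B6, 0.62 (SE 0.12) in Tac146 against B6 and -0.73 (SE 0.12) in Tac111 against Tac146. Without Tac146 replicate 4 Tac146 against B6 and Tac111 against Tac146 were 0.47 and -0.58 (SE 0.09 each). Serpinb3d (chromosome 1, 107078167 to 107083506) had the fewest reads, with 36, 27 and 34 counts in Tac111, 40, 49 and 90 in Tac146 and 28, 21 and 37 in B6. The 3 strains overlapped in CPM, and the log2 fold change of Tac146 against B6 was 0.75 (SE 0.33), or 0.44 (SE 0.34) without Tac146 replicate 4, its highest library.

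Added together, the 4 copies reached 1353 ± 186 CPM in Tac111, 2601 ± 656 in Tac146 and 1981 ± 556 in B6 (SD, n = 3 each). The sum followed Serpinb3a, with a log2 fold change of -0.55 (SE 0.23) in Tac111 against B6, 0.39 (SE 0.23) in Tac146 against B6 and -0.94 (SE 0.23) in Tac111 against Tac146. Without Tac146 replicate 4 it gave 0.24 (SE 0.24) in Tac146 against B6 and -0.79 (SE 0.23) in Tac111 against Tac146. Tac111 lay below both other strains in every library on this sum.

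Serpinb12 (chromosome 1, 106934449 to 106957080), whose human counterpart inhibits trypsin-like proteases, came next in level. It stood at 586, 771 and 775 CPM in Tac111, 969, 1443 and 1579 CPM in Tac146 and 828, 852 and 1204 CPM in B6. As for Serpinb3a, Tac111 lay below both other strains and Tac146 overlapped B6. The log2 fold change was -0.44 (SE 0.21) in Tac111 against B6, 0.47 (SE 0.21) in Tac146 against B6 and -0.90 (SE 0.21) in Tac111 against Tac146. Leaving out Tac146 replicate 4 gave 0.33 and -0.76 (SE 0.21 each) for the comparisons of Tac146 with B6 and of Tac111 with Tac146.

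Serpinb13 (chromosome 1, 106980984 to 107001195), known in human as hurpin, an inhibitor of cathepsins L and K in keratinocytes, stood at 10.03, 10.6 and 13.1 CPM in Tac111, 12.3, 16.9 and 15.9 CPM in Tac146 and 12.3, 13.3 and 21.1 CPM in B6. All strains overlapped, and B6 replicate 3 was the highest library. Its log2 fold change was -0.47 (SE 0.21) in Tac111 against B6 and -0.42 (SE 0.21) in Tac111 against Tac146. Without B6 replicate 3, Tac111 against B6 gave -0.19 (SE 0.165). In Tac146 against B6 the value of -0.05 (SE 0.20) changed sign to 0.23 (SE 0.16) without B6 replicate 3, and was -0.09 (SE 0.23) without Tac146 replicate 4.

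Serpinb5 (chromosome 1, 106861173 to 106883348) encodes maspin, a clade B serpin that does not inhibit proteases. It varied least, with 359, 372 and 374 CPM in Tac111, 388, 375 and 435 CPM in Tac146 and 361, 342 and 363 CPM in B6. Tac146 was above both other strains in every library, by a narrow margin, with a log2 fold change of 0.17 (SE 0.09) against B6. Tac111 against Tac146 gave -0.12 (SE 0.09). Both values were smaller without Tac146 replicate 4, at 0.10 and -0.05 (SE 0.09 each).

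Serpinb2 (chromosome 1, 107511423 to 107535478) is plasminogen activator inhibitor 2, made by macrophages and by keratinocytes. It stood at 89.4, 102 and 121 CPM in Tac111, 141, 154 and 141 CPM in Tac146 and 123, 118 and 128 CPM in B6. Tac146 was above both other strains in every library, and Tac111 overlapped B6. Tac111 against Tac146 gave a log2 fold change of -0.48 (SE 0.11), and Tac146 against B6 gave 0.24 (SE 0.11). A list of 10 macrophage and monocyte markers summed to 215 to 264 CPM in Tac111, 185 to 384 in Tac146 and 298 to 353 in B6, and its part in these values was not tested.

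Serpinb1a is the mouse counterpart of the leukocyte elastase inhibitor, which blocks the serine proteases of neutrophil granules. It stood at 164 and 163 CPM in Tac111 replicates 1 and 2 and 202 CPM in replicate 3, at 147, 206 and 164 CPM in Tac146 and at 128, 142 and 173 CPM in B6. All strains overlapped, and the log2 fold changes were 0.26 (SE 0.15) in Tac111 against B6, 0.22 (SE 0.15) in Tac146 against B6 and 0.04 (SE 0.15) in Tac111 against Tac146. A list of 10 neutrophil markers summed to 14.9 to 21.6 CPM in Tac111, 15.8 to 25.4 in Tac146 and 11.5 to 14.3 in B6. In the library with most at 0, 3 of the 10 were at 0 in Tac111, 3 in Tac146 and 5 in B6. Ly6g was at 0 in all 9 libraries, while other markers of the list had counts in each.

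**Figure D2:**
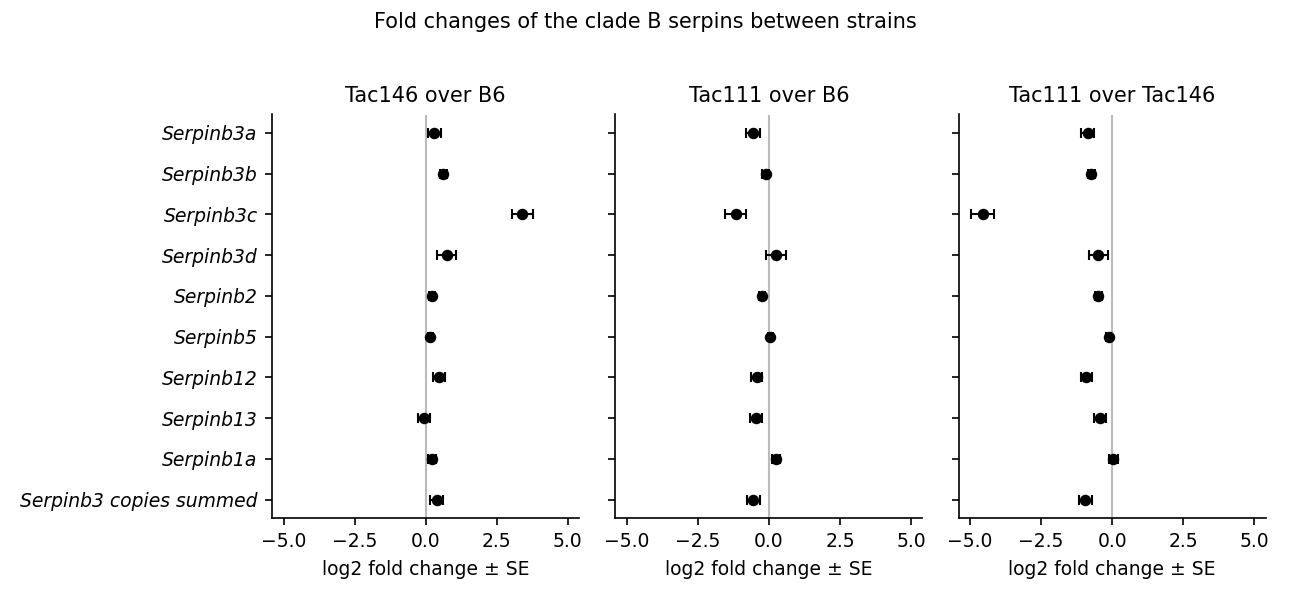
Log2 fold change with SE (horizontal axis) of each serpin and of the summed Serpinb3 copies in the 3 comparisons between strains, 3 libraries per strain. Serpinb3c lies far from the others at 3.40 in Tac146 over B6 and -4.56 in Tac111 over Tac146, and 8 of 9 genes lie below 0 in Tac111 over Tac146.

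The whole-table comparison was made by edgeR's quasi-likelihood test with Benjamini-Hochberg adjustment over 16523 genes and a threshold of 0.05. Since the genes were chosen on these contrasts, nothing is read from their own counts. Between Tac111 and B6, 0 of 9 passed, where 3.81% of all genes did. At an unadjusted p under 0.05 the count was 4 of 9, where 21.8% of all genes did, and DESeq2 called 0, where 7.34% of all genes were called. Between Tac146 and B6, 1 of 9 passed, Serpinb3c, higher in Tac146, where 0.303% of all genes passed and 0.194% passed as higher. Between Tac111 and Tac146, 5 of 9 passed, all lower in Tac111 (Serpinb3a, Serpinb3b, Serpinb3c, Serpinb2 and Serpinb12), where 8.89% of all genes passed and 6.27% passed as lower. The last count was 3 without Tac146 replicate 4 or Tac111 replicate 3, and 2 without Tac111 replicate 1, Tac111 replicate 2 or Tac146 replicate 3.

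Separation of the libraries is given in the same way. Tac111 lay wholly below B6 for 3 genes (Serpinb3a, Serpinb3c and Serpinb12), where 15.8% of all genes did. Tac146 lay wholly above B6 for 4 genes (Serpinb3b, Serpinb3c, Serpinb2 and Serpinb5), where 6.36% of all genes did. Tac111 lay wholly below Tac146 for 6 genes, these 4 with Serpinb3a and Serpinb12, where 18.4% of all genes did. The median log2 fold change of the 9 genes was -0.24 in Tac111 against B6, 0.30 in Tac146 against B6 and -0.49 in Tac111 against Tac146, beside 0.017, 0.0094 and 0.016 for all genes.

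Because these serpins belong to squamous epithelium, their levels were also set against the 12 differentiated keratinocyte genes of the same library, a scale added after the data had been seen. Most of the list's counts came from Krt4 and Krt13, so the scale is largely a ratio to these genes. In B6 replicate 1 they stood at 23180 and 28310 CPM, where the list summed to 62500. In B6 replicate 3 they stood at 43370 and 48380 CPM, where it summed to 109000. The keratinocyte list itself overlapped between the strains in all 3 comparisons. On this scale Serpinb3a had 16.6, 19.0 and 18.1 counts per 1000 keratinocyte counts in Tac111, 24.4, 27.3 and 28.3 in Tac146 and 23.1, 22.7 and 23.2 in B6. Its coefficient of variation among B6 libraries was 1.22%, against 28.9% in CPM, and the 3 strains no longer overlapped. Serpinb12 averaged 9.77 ± 0.807 in Tac111, 15.0 ± 1.16 in Tac146 and 11.7 ± 1.33 in B6 (SD, n = 3 each) and likewise did not overlap between strains.

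Serpinb3c kept its separation, with 0.0936 ± 0.0307 per 1000 keratinocyte counts in Tac111, 1.74 ± 0.63 in Tac146 and 0.193 ± 0.0828 in B6 (SD, n = 3 each). By contrast, Serpinb2 and Serpinb5, which were separate between Tac111 and Tac146 in CPM, overlapped on this scale, and Serpinb13 overlapped on both. Serpinb3b, Serpinb2 and Serpinb5, which are 3 of the 4 genes wholly above B6 in Tac146 by CPM, overlapped between Tac146 and B6. Their coefficients of variation among B6 libraries were larger than in CPM, at 25.4% against 3.67% for Serpinb3b, 25.7% against 4.08% for Serpinb2 and 27.3% against 3.25% for Serpinb5. That of Serpinb3c was 43.0% against 21.2% in CPM. Serpinb5 changed sign in Tac111 against Tac146, with a log2 difference of 0.15 against -0.12 in CPM. Serpinb3b changed sign in Tac111 against B6, with 0.05 against -0.11 in CPM. Serpinb3d lay above B6 in both Tac111 and Tac146, and Serpinb13 lay below B6 in Tac111. Serpinb1a lay above both other strains in Tac111, with log2 differences of 0.43 against B6 and 0.31 against Tac146.

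**Figure D3:**
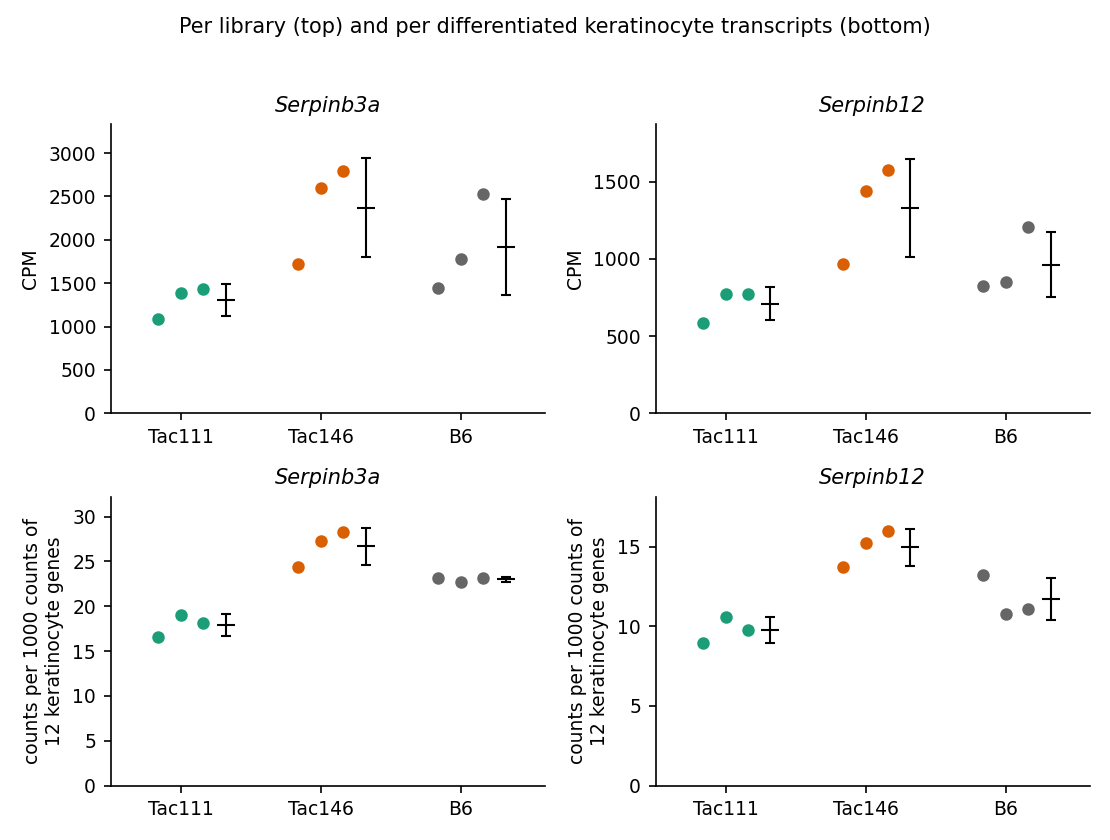
Serpinb3a (left) and Serpinb12 (right) in CPM (top) and as counts per 1000 counts of 12 differentiated keratinocyte genes (bottom), 1 point per library, with mean and SD per strain (n = 3), axes from 0. Relative to the keratinocyte genes the B6 values of Serpinb3a fall between 22.7 and 23.2, with all Tac111 values below and all Tac146 values above.

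A list of 8 wound keratinocyte genes, which includes keratins 6, 16 and 17, summed to 5360 to 6460 CPM in Tac111, 6440 to 9960 in Tac146 and 7100 to 7180 in B6. All 8 were measured in every library, none was at 0, and the highest value was that of Tac146 replicate 4, as for Serpinb3c. Between Tac111 and Tac146, 4 of the 8 fell by edgeR and 0 rose, where 6.27% of all genes fell. In Tac111 against B6 and in Tac146 against B6, 0 of the 8 were called, where 3.81% and 0.303% of all genes were. The part of these genes in the serpin values was not tested.

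Serpinb3c lies in the chromosome 1 cluster with other clade B genes. In Tac146 against B6 the other 7 serpins of the cluster named here gave log2 fold changes from -0.05 to 0.75, and the 4 remaining clade B genes there, Serpinb11, Serpinb7, Serpinb10 and Serpinb8, gave 0.42, 0.18, 0.33 and 0.02. In Tac111 against Tac146 the cluster genes Serpinb3a, Serpinb3b, Serpinb12 and Serpinb2 were also lower, at the values given above.

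**Figure D4:**
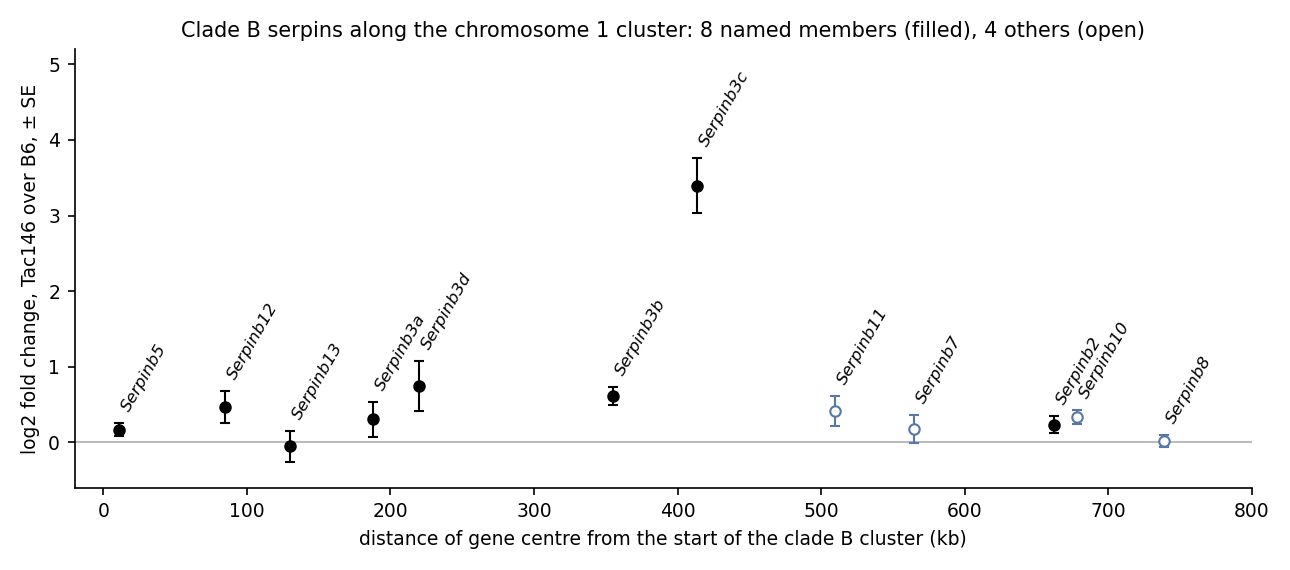
Log2 fold change of Tac146 over B6 with SE (vertical axis) against the distance of each gene's centre from the start of the chromosome 1 cluster in kb, with the 8 serpins described here filled and the other 4 clade B genes open. Serpinb3c stands at 3.40 and every other gene of the cluster at or below 0.75.

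The promoters of 3 of the 4 Serpinb3 copies were similar in sequence. RefSeq windows from 250 bases before to 50 bases after the start were matched for 7 of the 9 genes, 9 windows in all, and Serpinb13 and Serpinb1a had none. The windows of Serpinb3a, Serpinb3b and Serpinb3c were 93.1 to 96.2% identical over their aligned bases, and that of Serpinb3d was 63.4 to 67.4% identical to the other 3. Those of Serpinb3c and Serpinb3a are shown because Serpinb3c varied most between the strains and Serpinb3a was the most abundant copy (RefSeq, GRCm38.p6, minus strand, chr1:107278322-107278621 for Serpinb3c and chr1:107052254-107052553 for Serpinb3a). Capitals mark the 51 bases in each that differ from the other window or have no partner in it.
Serpinb3c: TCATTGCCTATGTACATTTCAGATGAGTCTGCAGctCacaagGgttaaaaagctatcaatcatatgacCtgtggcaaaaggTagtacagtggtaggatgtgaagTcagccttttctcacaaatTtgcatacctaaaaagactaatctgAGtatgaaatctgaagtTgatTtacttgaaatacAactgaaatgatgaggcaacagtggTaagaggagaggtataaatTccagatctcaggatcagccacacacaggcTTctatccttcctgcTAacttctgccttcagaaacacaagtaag
Serpinb3a: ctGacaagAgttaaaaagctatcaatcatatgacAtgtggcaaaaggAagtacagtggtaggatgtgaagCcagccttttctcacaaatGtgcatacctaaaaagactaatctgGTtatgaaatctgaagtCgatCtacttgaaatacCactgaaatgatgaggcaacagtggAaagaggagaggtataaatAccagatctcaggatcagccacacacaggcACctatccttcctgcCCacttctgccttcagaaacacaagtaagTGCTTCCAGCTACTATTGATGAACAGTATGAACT
Over 266 aligned bases the pair was 93.6% identical, and the windows start at slightly different points.

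Short motifs were searched on both strands of the 9 windows and of 32851 RefSeq windows of the same length. TATAAA, the TATA box, was present in 8 of the 9 windows, all but that of Serpinb5, and in 13.6% of all windows. TGANTCA, the AP-1 motif, was present in 4, which belong to Serpinb5, Serpinb12 and Serpinb2, and in 7.81% of all windows. The STAT6 motif, TTC and GAA with 4 free bases between them, was present in 0 of the 9 and in 6.95% of all windows, which says only that these letters are not in these windows. A match in a window is a description, not a site.

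The genes whose pattern over the 9 libraries was most like that of each serpin were found by the root mean square difference of log2 CPM, centred on the mean of the 9 libraries, among the 11322 tested genes that averaged at least 5 CPM. For Serpinb3c these were Chil1, a secreted chitinase-like protein, at a difference of 0.452, the pseudogene Sprr2j-ps at 0.56 and Sprr2h, a small proline-rich protein of the cornified envelope, at 0.674, beside a spread of Serpinb3c itself of 1.94. Chil1 stood at 1.83, 4.12 and 2.53 CPM in Tac111, 71.2, 107 and 125 CPM in Tac146 and 14.6, 4.38 and 9.41 CPM in B6. Like Serpinb3c, it was higher in every Tac146 library than in every B6 library, and lower in every Tac111 library than in every B6 library. Sprr2h stood at 2.21, 1.55 and 1.02 CPM in Tac111, 10.1, 13.8 and 22.9 CPM in Tac146 and 4.06, 1.18 and 3.11 CPM in B6, so Tac111 and B6 overlapped. The Sprr2 genes form a family of close copies, which may share reads.

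**Figure D5:**
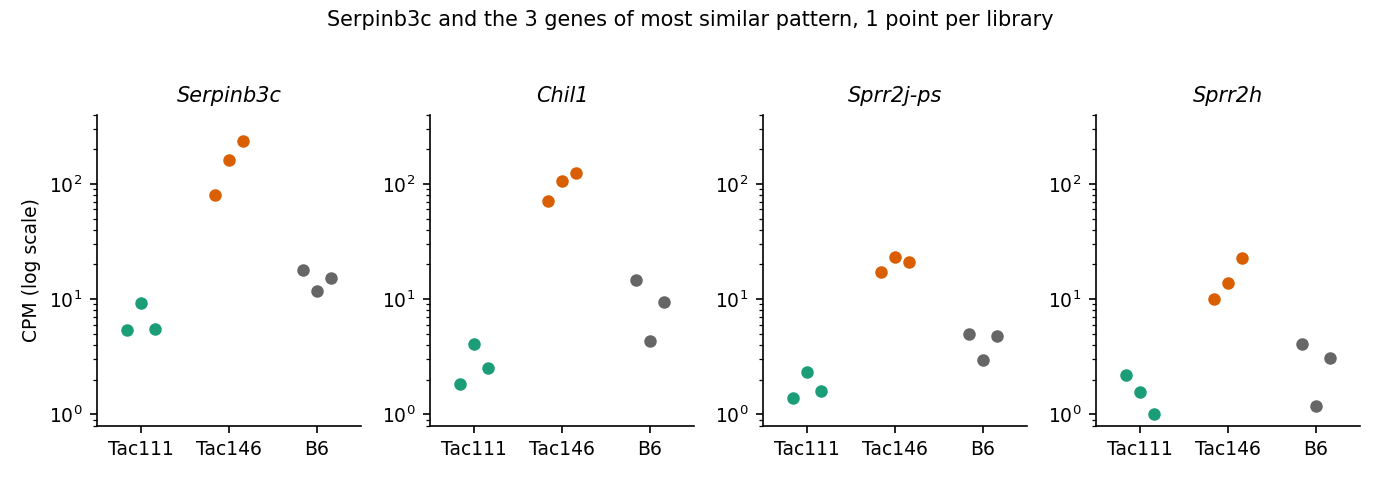
CPM on a log scale of Serpinb3c, Chil1, Sprr2j-ps and Sprr2h, 1 point per library, in Tac111, Tac146 and B6. In all 4 genes the 3 Tac146 libraries lie above the other 6.

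Serpinb3a and Serpinb12 were each among the nearest to the other, at a difference of 0.0959. Defb4, an antimicrobial beta-defensin, was nearest to Serpinb12 at 0.0917, and Pglyrp4, a peptidoglycan recognition protein, was among the 3 nearest to both. Rnase1 was also among the 3 nearest to Serpinb3a, at 0.115. Krt13 was among the 3 nearest to Serpinb13, at 0.116, beside Asprv1, a retroviral-like protease of the upper epidermis, at 0.103 and Ifi204 at 0.114. For Serpinb2 the nearest were Il34 at 0.0756, Sowahc and Myd88. Serpinb3b was nearest to Prr13 at 0.109, Rbp2 and Arrdc4, Serpinb3d to Cyp2c65 at 0.185, Tmprss11b and Klk14, and Serpinb1a to Gsta4 at 0.0917, Hmgn3 and Bglap3. Serpinb5 was nearest to Csnk1a1 at 0.0305, Axin1 at 0.0316 and Marveld2 at 0.032. The points of these comparisons share their libraries and depth.

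The other clade B serpins did not pass in any comparison. Of 19 other symbols 11 were tested, and edgeR called 0 in Tac111 against B6, Tac146 against B6 and Tac111 against Tac146. Of all genes it called 3.81%, 0.303% and 8.89%. At an unadjusted p under 0.05 were 0, 2 and 2 of the 11, where 21.8%, 6.96% and 30.9% of all genes were. DESeq2 called 0 in each, where 7.34%, 0.823% and 16.2% of all genes were called. The highest of them were Serpinb6a, an inhibitor of cathepsin G in mouse, with 312 ± 54.6 CPM in Tac111, 242 ± 43.9 in Tac146 and 273 ± 37.6 in B6 (SD, n = 3 each), then Serpinb6d with a mean of 195 CPM and Serpinb11 with 131 CPM over all libraries.

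Proteases of the kinds that such serpins inhibit were counted in the same way. Of 10 cysteine cathepsins, 1 fell in Tac111 against B6, where 3.81% of all genes were called, and 2 fell in Tac111 against Tac146, where 8.89% were. None was called in Tac146 against B6, where 0.303% of all genes were (unadjusted p under 0.05 in 0, called by DESeq2 in 0). The calls were Ctsw, a cathepsin of cytotoxic lymphocytes, with 0.0241 ± 0.0417 CPM in Tac111, 2.49 ± 0.51 in Tac146 and 1.84 ± 0.383 in B6 (SD, n = 3 each, edgeR adjusted p = 0.000118 against Tac146 and 0.000346 against B6), and Ctss, the cathepsin of antigen-presenting cells, with 16.1 ± 1.82 CPM in Tac111 and 27.5 ± 8.31 in Tac146 (log2 fold change -0.77 ± 0.20 SE, adjusted p = 0.041 by edgeR). The call of Ctss was lost in 8 of 9 fits that left out 1 library, all but that without Tac146 replicate 4, and those of Ctsw in none. Of 8 tested genes of plasminogen activation, the targets of Serpinb2 and their partners, 0 were called by edgeR or DESeq2 in each comparison. Of all genes, edgeR called 3.81% in Tac111 against B6, 0.303% in Tac146 against B6 and 8.89% in Tac111 against Tac146. DESeq2 called 7.34%, 0.823% and 16.2% in the same order. Of the 8, 2, 0 and 3 were below an unadjusted p of 0.05, where 21.8%, 6.96% and 30.9% of all genes were. The edgeR count was 1 in both comparisons of Tac111 under the replicate block or without Tac146 replicate 4, and 1 in Tac111 against B6 with only the 6 libraries compared. Of 5 tested proteases of neutrophils and mast cells, 0 were called by edgeR or DESeq2, and 0 were below an unadjusted p of 0.05, in each comparison. Over all genes, in the same order of comparisons, edgeR called 3.81%, 0.303% and 8.89% and DESeq2 called 7.34%, 0.823% and 16.2%. Below the unadjusted p were 21.8%, 6.96% and 30.9% of all genes.

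Among 17 epithelial serine proteases, 1 rose in Tac146 against B6, where 0.194% of all genes did, and 4 fell in Tac111 against Tac146, where 6.27% of all genes did. Prss27, a membrane-anchored protease of squamous epithelium, stood at 59.2 ± 9.46 CPM in Tac111, 132 ± 22.4 in Tac146 and 65.5 ± 12.9 in B6 (SD, n = 3 each), a log2 fold change of 1.01 in Tac146 against B6 (SE 0.17, edgeR adjusted p = 0.0434). Tmprss11g, Klk13 and Tmprss11f, further secreted or membrane-bound proteases, fell in Tac111 against Tac146, with log2 fold changes of -1.26, -0.61 and -0.52. Leaving out 1 library at a time, the call of Prss27 in Tac146 against B6 was lost in 6 of 9 fits, its call in Tac111 against Tac146 in 0, that of Klk13 in 7, that of Tmprss11f in 6 and that of Tmprss11g in 4. In Tac111 against B6, 0 of the 17 were called, where 3.81% of all genes were (unadjusted p under 0.05 in 0, called by DESeq2 in 0). The median log2 fold change of this list was 0.24 in Tac146 against B6 and -0.14 in Tac111 against Tac146, beside 0.0094 and 0.016 for all genes. Among 12 non-serpin inhibitors of squamous epithelium, 1, Wfdc5, fell in Tac111 against Tac146, where 6.27% of all genes did. Wfdc5 had 112 ± 7.43 CPM in Tac111 and 178 ± 30.4 in Tac146 (SD, n = 3 each, edgeR adjusted p = 0.0349). That call was lost in 6 of 9 fits that left out 1 library. None of the 12 was called in Tac111 against B6 or in Tac146 against B6, where 3.81% and 0.303% of all genes were. An unadjusted p under 0.05 was found in 2 and 0 of them, where 21.8% and 6.96% of all genes had one. DESeq2 called 0 in each, where 7.34% and 0.823% of all genes were called.

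Human SERPINB3 is a known target of interleukins 4 and 13 in epithelial cells. A list of genes tied to these cytokines was therefore read beside it. Besides genes that they induce, the list holds Il4, Il13, Il4ra, Il13ra1 and Stat6, which belong to the pathway itself. Of 15 tested, 6 fell in Tac111 against B6, where 3.81% of all genes were called. Between Tac111 and Tac146, 7 fell in Tac111, where 8.89% of all genes were called and 6.27% fell. Il13ra1 was among these 7, with a log2 fold change of -0.44. In Tac146 against B6, 0 were called by edgeR or DESeq2, where 0.303% and 0.823% of all genes were. There, 6 had an unadjusted p under 0.05, as had 6.96% of all genes. Alox15, a lipoxygenase, had 4.02 ± 0.737 CPM in Tac111, 409 ± 109 in Tac146 and 208 ± 96.1 in B6 (SD, n = 3 each). Chil4, a chitinase-like protein with a near-identical copy in Chil3, had 0.675 ± 0.494 CPM in Tac111, 6950.0 ± 3061 in Tac146 and 1802 ± 553 in B6 (SD, n = 3 each). Fcgbp, a mucin-like protein, had 38.6 ± 4.99 CPM in Tac111, 116 ± 21.5 in Tac146 and 73.5 ± 16.2 in B6 (SD, n = 3 each). With 1 library left out the counts were 3 to 6 in Tac111 against B6 and 6 to 8 in Tac111 against Tac146. The calls of Alox15 and Chil4 held in all 9 such fits in both comparisons, and that of Fcgbp against B6 was lost in 3 of them (without B6 replicate 2, Tac111 replicate 1 or Tac111 replicate 2). The median log2 fold change of the list was -0.28 in Tac111 against B6, 0.22 in Tac146 against B6 and -0.64 in Tac111 against Tac146. The medians of all genes were 0.017, 0.0094 and 0.016 in the same order. This list was chosen with earlier results of these libraries known and gives no independent evidence of a direction.

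Outside clade B, 19 serpins were tested. Of them, 2 were called in Tac111 against B6 and 3 in Tac111 against Tac146, where 3.81% and 8.89% of all genes were. In Tac146 against B6, 0 were called, where 0.303% of all genes were. Serpina3g and Serpina3i, members of a mouse family of close copies of alpha-1-antichymotrypsin, fell in both comparisons of Tac111, though against B6 the calls were lost in 3 and 5 of 9 fits that left out 1 library, and Serpina9 fell in Tac111 against Tac146, with 74.7 ± 3.02 CPM in Tac111 and 141 ± 29 in Tac146 (SD, n = 3 each, edgeR adjusted p = 0.00642). Of 5 tested non-serpin genes within 1 Mb of the chromosome 1 cluster, 1 fell in Tac111 against Tac146, where 6.27% of all genes did. This gene, Zcchc2, had a log2 fold change of -0.53 ± 0.11 SE (adjusted p = 0.0237 by edgeR). Its call was lost in 4 of 9 fits with 1 library left out. In Tac111 against B6 and Tac146 against B6, edgeR called 0 of the 5, where it called 3.81% and 0.303% of all genes. DESeq2 also called 0, where it called 7.34% and 0.823%. At an unadjusted p under 0.05 were 2 and 0 of the 5, where 21.8% and 6.96% of all genes were.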

How the data were processed

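The authors deposited 1 table per library with a gene symbol and an RSEM expected count, an estimated count that need not be whole, per the file headers. STAR, RSEM and GRCm38 are named in the submitters' processing notes. Their versions, the gene annotation used and whether strand was counted are not stated, so overlapping and antisense genes may share reads. The kit was stranded and selected polyadenylated RNA, per the labels' protocols. Each table held 55450 lines, with 2710 to 3195 values that were not whole. Lines of the 107 symbols that occurred several times were summed, and 27 lines with date-like names were kept apart.

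Expected counts were rounded to whole numbers and fitted with edgeR 4.0.16 (TMM factors, its expression filter, 1 mean per strain over all 9 libraries, 6 residual degrees of freedom, quasi-likelihood test) in R 4.3.3. P-values were adjusted by Benjamini-Hochberg over 16523 genes, with a threshold of 0.05. The SE is approximate: the size of the fold change on the log2 scale over the root of its F value. The procedure was first tested on simulated counts. Libraries of the same strain differed beyond counting noise (chi-square per degree of freedom 15.3 to 94.5), so each library counted as 1 replicate.

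The 9 genes and the lists of proteases, inhibitors and cell type markers were chosen with earlier results of these data known. The rule for names took all 9 genes, the 3 highest other clade B serpins, up to 4 called genes per list with the smallest adjusted p, and the 3 nearest genes by pattern. Coordinates, transcripts and exon lengths are from GENCODE M21, and promoter windows from RefSeq (GRCm38.p6). Alternatives were DESeq2 1.42.0, median-ratio and upper-quartile factors, no filter, a filter of 1 CPM in 3 libraries, the replicate number as a block, a fit to the 6 libraries compared, and each library left out. Scaling to keratinocyte counts was added after seeing the data. Python 3.11.15 with pandas 2.3.3 and matplotlib 3.10.9 made the tables and plots.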

Additional observations from a re-analysis of the deposited data

How the results depend on the processing

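Leaving out 1 library at a time gave Serpinb3c a log2 fold change of 2.99 to 3.71 in Tac146 against B6 and of -4.87 to -4.16 in Tac111 against Tac146. Of 459 alternative values of the fold changes of the 9 genes, 449 moved by less than the spread between replicates, 10 by more, and none turned the sign of a called value. Those 10 were 1 under the replicate block and 9 under keratinocyte scaling.

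Among the 9 genes, the count past the threshold in Tac111 against B6 was 0, and 1 with no filter (Serpinb3c), under the replicate block (Serpinb3a) or with only the 6 libraries compared (Serpinb3c), and 0 to 1 when leaving out 1 library. In Tac146 against B6 it was 1, and 2 by DESeq2 or with no filter (Serpinb3b and Serpinb3c), and 1 to 2 when leaving out 1 library. In Tac111 against Tac146 it was 5, and 2 under the replicate block (Serpinb3b and Serpinb3c), 3 with only the 6 libraries compared, and 2 to 5 when leaving out 1 library, with 2 without Tac111 replicate 1, Tac111 replicate 2 or Tac146 replicate 3. The summed Serpinb3 copies gave -0.62 (SE 0.15) in Tac111 against Tac146 under the block, against -0.94.

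Over all genes, 630 were called in Tac111 against B6, 1213 by DESeq2, 1020 with no filter and 295 to 958 when leaving out 1 library. In Tac146 against B6 50 were called, 136 by DESeq2, 129 with no filter, 26 with only the 6 libraries compared and 33 to 64 when leaving out 1 library. In Tac111 against Tac146 1469 were called, 2677 by DESeq2, 632 under the replicate block, 641 with only the 6 libraries compared and 470 to 1829 when leaving out 1 library. Other clade B serpins in Tac111 against Tac146 numbered 0 to 1 when leaving out 1 library (1 without Tac146 replicate 2). The cause of these shifts was not tested. No scaling moved the median over all genes by more than 0.1 (log2).

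Same-numbered libraries did not deviate together (r over genes -0.0732, 0.0109 and 0.0105 for Tac111 and B6, 0.0427 and 0.0749 for Tac146 and B6, -0.0695 and 0.188 for Tac111 and Tac146), so the replicate numbers were not taken to pair samples. Depth limits Serpinb3d most, with 21 to 90 counts in a library.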

Other observations

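Marker lists of other cell types that a labial biopsy can hold are given as summed levels, and their part in the serpin values was not tested. Basal keratinocyte markers summed to 9650.0 to 10200.0 CPM in Tac111, 8880.0 to 10100.0 in Tac146 and 9660.0 to 10100.0 in B6. Hair follicle and sebaceous gland markers summed to 3140.0 to 4960.0 CPM in Tac111, 1670.0 to 4070.0 in Tac146 and 2390.0 to 3620.0 in B6. Salivary and mucous gland markers summed to 16.8 to 28.6 CPM in Tac111, 7.01 to 11.3 in Tac146 and 4.39 to 7.45 in B6. Eosinophil markers summed to 0.898 to 1.48 CPM in Tac111, 3.51 to 5.86 in Tac146 and 2.96 to 3.11 in B6, with 6, 4 and 4 of 7 markers at 0 in the library with most at 0. T cell markers summed to 15.9 to 18.8 CPM in Tac111, 16.4 to 18.1 in Tac146 and 22.3 to 25.9 in B6. In the library with most at 0, 4, 1 and 0 of these 10 markers were at 0, and Cd3d, Cd3e, Cd3g and Cd8a were at 0 in every Tac111 library. ILC1 and natural killer cell markers summed to 6.37 to 8.85 CPM in Tac111, 17.9 to 22.2 in Tac146 and 18.0 to 20.8 in B6. Of these 10 markers, 6, 0 and 1 were at 0 in the library with most at 0.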
